A study of Homo sapiens with 6 samples.

Results

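The IL-6 receptor chains IL6R and IL6ST were examined together with 8 related cytokine receptor genes, LIFR, OSMR, IL13RA1, IL4R, IL21R, IL10RA, IL10RB and IFNGR1, in INA-6 cells. These members were taken by name from the gene symbols of the array's probe table. All 10 were found among 17411 genes with a symbol, with 19 of the 27216 probes that carry one, on an array of 243504 spots. INA-6 is a human multiple myeloma cell line that is cultured with interleukin-6 (IL-6). RNA was measured in 2 groups of 3 samples each, both taken from cells from which IL-6 had been withdrawn for 13 h. One group was analyzed at that point (withdrawn) and the other after IL-6 had been added back for 1 h (restimulated). The labels call the 3 samples of each group biological replicates, and do not say how the cultures were kept apart. All samples are of 1 cell line, and no sample kept permanently in IL-6 was analyzed here.

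IL-6 binds its specific receptor chain, the product of IL6R, and the complex then recruits gp130, the product of IL6ST, which passes the signal through JAK kinases to the transcription factor STAT3. gp130 is shared by the IL-6 cytokine family. LIFR and OSMR encode the chains that pair with it for leukemia inhibitory factor and oncostatin M. The other members belong to neighboring receptor families. IL4R and IL13RA1 encode the chains of the type II receptor for IL-4 and IL-13, which signals through STAT6. IL21R pairs with the common gamma chain, and IL10RA, IL10RB and IFNGR1 are class II cytokine receptors, of which IL10RA signals through STAT3. In myeloma, IL-6 is known as a growth and survival factor.

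Promoter sequences are shown for IL6ST, the shared chain of the IL-6 receptor, for IL13RA1, the member with the lowest p, and for IL10RB, a member with a STAT-type motif, because the added cytokine acts through STAT3. They come from RefSeq (GRCh38.p14), 250 bases before to 50 bases after an annotated start, written 5′ to 3′ on the gene's strand. All 10 members had such a sequence, 13 in total. Capitals mark the motif TTCNNNGAA, the palindrome bound by STAT dimers, which reads the same on both strands.
IL6ST (chr5:55994914-55995213, minus strand): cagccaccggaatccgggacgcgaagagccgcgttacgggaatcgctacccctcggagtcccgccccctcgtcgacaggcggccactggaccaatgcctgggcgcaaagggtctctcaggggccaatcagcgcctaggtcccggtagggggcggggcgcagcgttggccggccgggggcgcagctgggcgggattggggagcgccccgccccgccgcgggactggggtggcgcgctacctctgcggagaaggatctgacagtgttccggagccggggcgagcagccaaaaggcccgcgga
IL13RA1 (chrX:118727356-118727655, plus strand): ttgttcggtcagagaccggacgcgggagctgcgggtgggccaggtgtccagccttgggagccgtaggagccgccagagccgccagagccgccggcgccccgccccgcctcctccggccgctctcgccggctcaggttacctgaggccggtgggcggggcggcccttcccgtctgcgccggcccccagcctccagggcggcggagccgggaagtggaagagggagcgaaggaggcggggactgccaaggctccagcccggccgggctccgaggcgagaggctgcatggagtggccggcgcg
IL10RB (chr21:33266117-33266416, plus strand): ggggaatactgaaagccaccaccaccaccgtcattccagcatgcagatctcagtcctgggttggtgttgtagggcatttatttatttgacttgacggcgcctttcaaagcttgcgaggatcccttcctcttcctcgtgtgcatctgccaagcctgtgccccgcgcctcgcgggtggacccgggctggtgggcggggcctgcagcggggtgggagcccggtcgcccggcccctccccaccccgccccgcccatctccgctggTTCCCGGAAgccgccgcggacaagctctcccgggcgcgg

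The windows of IL6R, IL6ST, OSMR, IL13RA1, IL4R, IL21R, IL10RA and IFNGR1 did not hold these letters. In IL10RB the match was TTCCCGGAA, and 2 of the 3 annotated starts of LIFR had the matches TTCCTTGAA and TTCATCGAA. The motif was present in 7.66% of 35116 promoters of the same length. The letters GGGCGG, the core of a GC box, were searched on both strands and occurred 4 times each in the windows of IL6ST and IL13RA1, and in 45.0% of all promoters at least once. The array values do not show which start was used, and a match is a description of letters only.

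Each probe has 1 value per array, a log2 intensity that the authors quantile normalized between arrays. The median over all spots of an array lay between 6.84 and 6.85 and served as the floor. Tests were run on probes that exceeded this floor on 3 or more of the 6 arrays, a condition met by 12 of the 19 member probes in 8 of the 10 genes and by 122102 probes in all. The link between probe numbers and rows of the value table follows the geometry of the array and is an inference, on which all gene names rest. Under it the mean levels of 7146 probe pairs of the same gene correlated with r = 0.432, against 0.0174 when equal numbers were matched. These are correlations across genes, which are not independent replicates. Withdrawn replicate 3 stood apart from the other arrays, at 70.6 on the second principal component, where the other 5 lay between -39.6 and 10.4.

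None of the 12 tested member probes passed an adjusted p of 0.05 in limma (two-sided, Benjamini-Hochberg over all tested probes). Of all tested probes 1.83% passed, 1.74% higher and 0.0983% lower after restimulation, and of the 18613 with a symbol 0.505%, 0.446% higher and 0.0591% lower. At an unadjusted p of 0.05, 4 of the 12 passed, namely the 3 probes of IL13RA1 and 1 of IL10RA, beside 13.4% of all tested probes and 7.64% of those with a symbol. The IL13RA1 probes were higher after restimulation, as were 7.13% of all tested probes and 3.93% of those with a symbol at this p, and the IL10RA probe was lower, as were 6.25% and 3.71%. The groups did not overlap at 5 of the 12 probes, 4 of them higher, beside 17.4% of all tested probes and 11.7% of those with a symbol. Both counts include an IL13RA1 probe that entered the test only through its restimulated arrays, so they are a description. Neither IL-6 receptor chain passed. IL13RA1 showed the largest differences among the members and lay next to the threshold (adjusted p = 0.0534). The median difference of the tested member probes, restimulated minus withdrawn, was 0.03 on the log2 scale, and that of all tested probes with a symbol 0.01. The signs were even, with 6 positive and 6 negative. The 95% interval of each of the 12 differences excluded a doubling and a halving of the measured intensity. Some of these probes lay near the floor, among them the dimmer IL6ST probe, IL21R and the dimmest tested IL13RA1 probe. For such probes the interval sets no limit on the change in RNA. In RNA of whole samples, fewer cells that express a gene and less RNA per cell cannot be told apart.

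**Figure D1:**
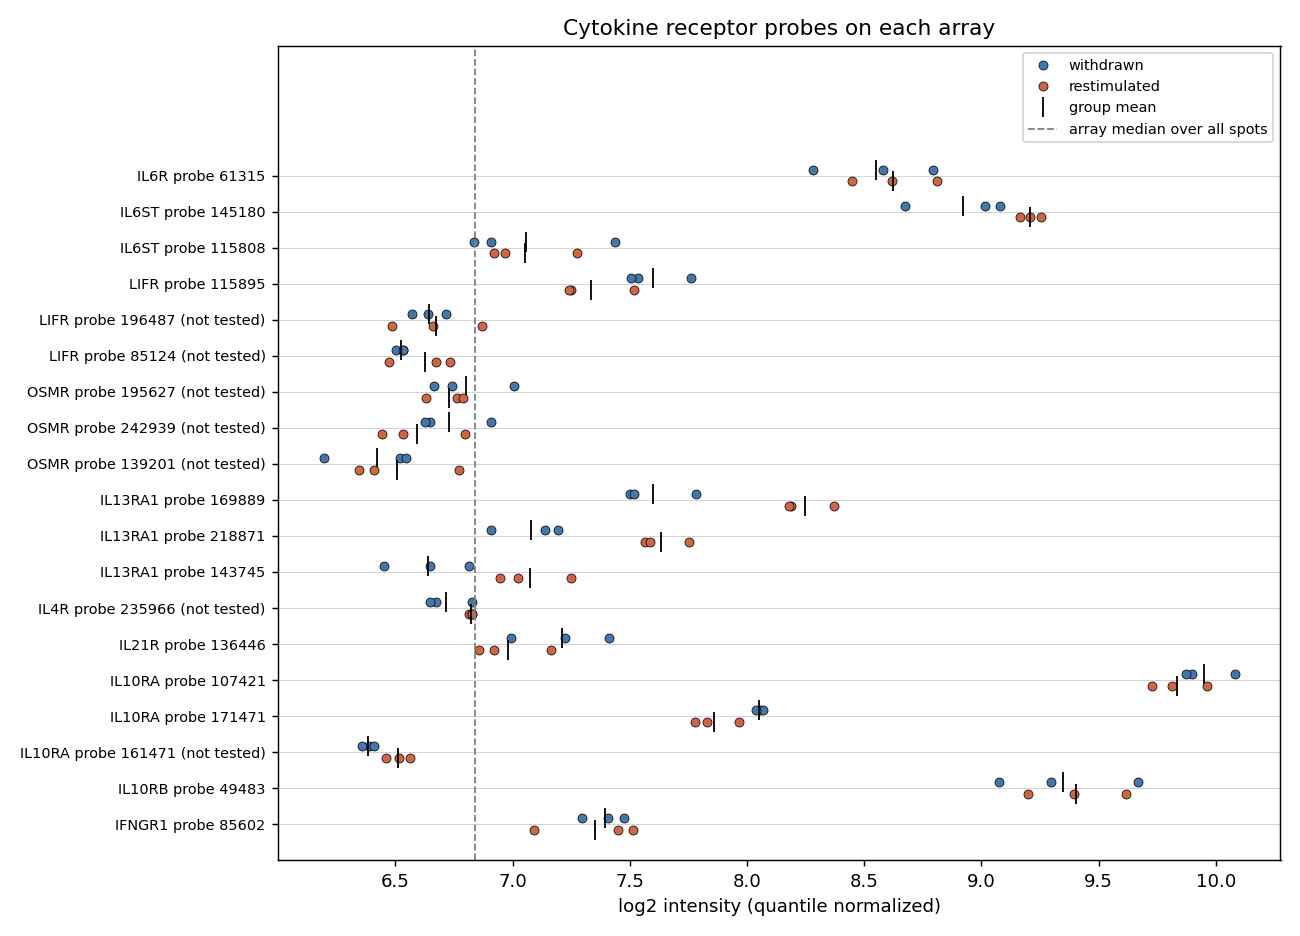
Log2 intensity (x axis) of the 19 probes of the 10 receptor genes (y axis) on each of the 3 withdrawn and 3 restimulated arrays, with vertical ticks at the group means and the array median dashed. The groups separate at all 3 probes of IL13RA1, while the probes of OSMR and IL4R lie around or below the array median.

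The ligand-binding chain of IL-6 was measured by 1 IL6R probe. Its log2 intensity was 8.58, 8.79 and 8.28 on the withdrawn and 8.81, 8.62 and 8.45 on the restimulated arrays. The groups overlapped, and the lowest value was that of withdrawn replicate 3. The difference was 0.07 ± 0.16 (SE, n = 3 per group, limma adjusted p = 0.903), with a 95% interval from -0.32 to 0.47, which corresponds to between 0.799-fold and 1.39-fold. It turned to -0.062 without withdrawn replicate 3 and to -0.019 without restimulated replicate 1.

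The shared signal-transducing chain gp130 was measured by 2 IL6ST probes. The brighter one, designed to the RefSeq transcript, read 9.08, 9.02 and 8.67 on the withdrawn and 9.26, 9.16 and 9.21 on the restimulated arrays. The 3 restimulated values lay above the 3 withdrawn ones, which was so for 8.83% of all tested probes and 6.15% of those with a symbol. The difference was 0.29 ± 0.12 (SE, n = 3 per group, limma adjusted p = 0.388, 95% interval -0.0079 to 0.58). It was 0.16 without withdrawn replicate 3, which held the lowest value. The dimmer probe, designed to another transcript record, read 7.43, 6.91 and 6.84 on the withdrawn and 7.28, 6.97 and 6.92 on the restimulated arrays, and the groups overlapped. Its difference was -0.0049 ± 0.19 (SE, n = 3 per group, limma adjusted p = 1.00, 95% interval -0.48 to 0.47). Whether the probes differed from each other in response was not tested.

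The other gp130 partners among the members, LIFR and OSMR, were dim. LIFR, the receptor chain for leukemia inhibitory factor, had 3 probes, of which 1 was tested. It read 7.53, 7.76 and 7.50 on the withdrawn and 7.25, 7.24 and 7.52 on the restimulated arrays, and restimulated replicate 3 lay within the withdrawn range. The difference was -0.26 ± 0.11 (SE, n = 3 per group, limma adjusted p = 0.408, 95% interval -0.54 to 0.02). The other LIFR probes ranged from 6.47 to 6.87 over the 6 arrays and exceeded the array median on 1 array at most. OSMR, the chain for oncostatin M, had 3 probes between 6.20 and 7.0, of which 2 exceeded the median on 1 array each and the third on none, and none was tested. These values set no level for OSMR beyond being near the floor.

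IL13RA1, the IL-13-binding chain that pairs with the IL-4 receptor chain, was higher on each restimulated array than on each withdrawn array at all 3 of its probes. This held at every tested probe for 9 (0.814%) of the 1105 genes with at least 3 tested probes, IL13RA1 included. The brightest IL13RA1 probe read 7.50, 7.78 and 7.52 on the withdrawn and 8.19, 8.18 and 8.37 on the restimulated arrays. Its difference was 0.65 ± 0.10 (SE, n = 3 per group, limma adjusted p = 0.0534), or 1.56-fold with a 95% interval from 1.31-fold to 1.87-fold. The second probe read 6.91, 7.14 and 7.19 against 7.75, 7.56 and 7.59 after restimulation. It differed by 0.55 ± 0.10 (SE, n = 3 per group, limma adjusted p = 0.0741). The third probe read 6.45, 6.65 and 6.81, all below the array median, against 7.25, 7.02 and 6.95 after restimulation. Its measured difference of 0.44 ± 0.13 (SE, n = 3 per group) did not pass (limma adjusted p = 0.217). Set against the floor the estimate was 1.17-fold, where the floor is per array the higher of the median and the probe's own signal. This is no lower bound, since the 95% interval of the measured difference began at 1.09-fold. This probe entered the test through its 3 restimulated arrays alone. Its direction was therefore fixed by the filter, and it adds no support to the other probes. The probes of a gene share their samples and are not replicates.

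Whether IL13RA1 passed depended on the setting. The sign of each of its probes was the same in every setting that tested it. These were 18 other settings for the brightest probe, 15 for the second and 14 for the third. The probes passed in 5, 2 and 0 of them, in this order. The 18 include the mean over the probes of the gene, and the sign of the third probe was fixed by the filter. The brightest probe passed when the variance prior followed intensity and was made robust (adjusted p = 0.00983), without spots at the scanner ceiling (0.0155), with the methods' added filter on the interquartile range (0.00715), with each array centered on its median over tested probes (0.0297) and with array weights (0.0424). The second probe passed under the first pair of these settings (0.0338 and 0.0325). Neither passed when 1 array was left out (adjusted p between 0.0643 and 0.181 for the brightest probe), and with 1 probe a gene the adjusted p was 0.178. With the replicate number as a block the limma adjusted p of the brightest probe was 0.228. As a mean over its probes IL13RA1 differed by 0.55 ± 0.09 (SE, n = 3 per group, limma adjusted p = 0.139 over 12703 genes). That mean includes the third probe, whose direction was fixed by the filter.

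**Figure D2:**
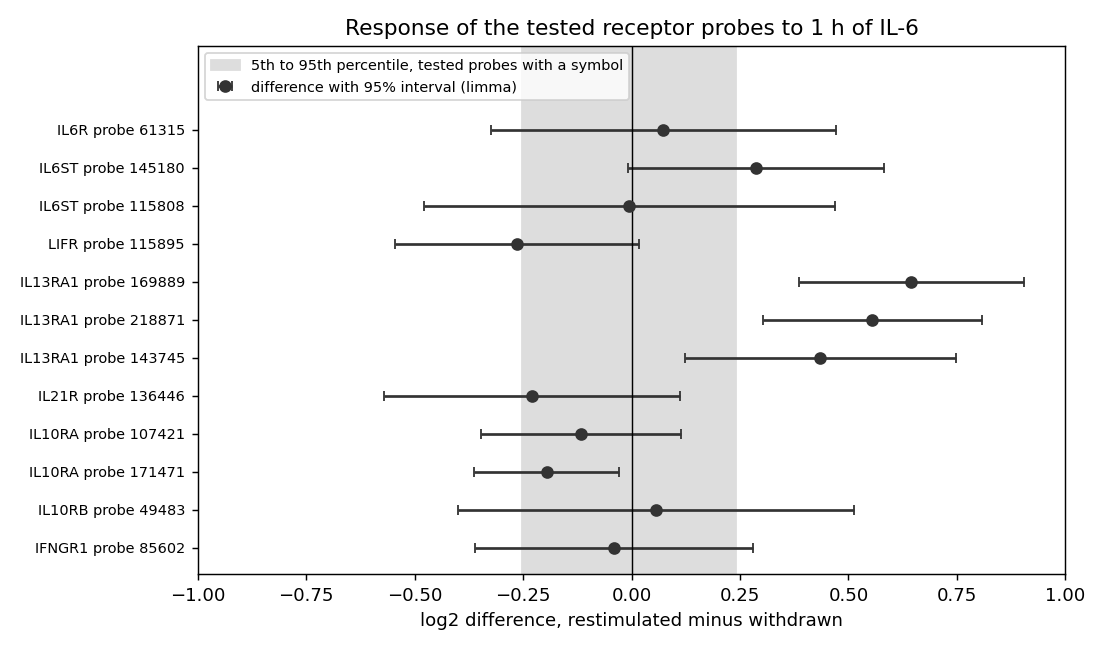
Log2 difference, restimulated minus withdrawn, of the 12 tested receptor probes (points) with 95% intervals from limma (bars), and the range from the 5th to the 95th percentile of tested probes with a symbol (gray, -0.25 to 0.24). The points of the 3 IL13RA1 probes (0.44 to 0.65) and of the brighter IL6ST probe (0.29) lie to the right of the gray range, and that of LIFR (-0.26) to its left.

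The partner chain of IL13RA1 was not measurable. The 1 probe of IL4R, the IL-4-binding chain, read 6.67, 6.65 and 6.83 on the withdrawn and 6.82, 6.83 and 6.83 on the restimulated arrays, never above the array median, and was not tested. IL21R, its neighbor on chromosome 16 and the specific chain of the IL-21 receptor, read 6.99, 7.22 and 7.41 on the withdrawn and 7.16, 6.85 and 6.92 on the restimulated arrays. The groups overlapped, and all 6 values lay slightly above the floor. The difference was -0.23 ± 0.14 (SE, n = 3 per group, limma adjusted p = 0.569, 95% interval -0.57 to 0.11), and it was -0.13 without withdrawn replicate 3.

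The class II receptors gave small differences. IL10RA, the ligand-binding chain for IL-10, had 2 tested probes, both with a negative difference. The brighter read 9.90, 10.08 and 9.87 on the withdrawn and 9.73, 9.81 and 9.96 on the restimulated arrays, with overlap (difference -0.12 ± 0.09 SE, n = 3 per group, limma adjusted p = 0.680). It was -0.051 without withdrawn replicate 2, -0.065 without restimulated replicate 1 and -0.18 without restimulated replicate 3. The dimmer read 8.05, 8.07 and 8.04 against 7.83, 7.78 and 7.96 after restimulation, without overlap, as did 8.53% of all tested probes and 5.53% of those with a symbol in this direction. It differed by -0.20 ± 0.07 (SE, n = 3 per group, limma adjusted p = 0.295, 95% interval -0.36 to -0.03). A further IL10RA probe, at 6.36 to 6.41 on the withdrawn and 6.46 to 6.56 on the restimulated arrays, lay below the floor throughout and was not tested, although its groups did not overlap.

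IL10RB, the second chain of the IL-10 receptor, which also serves IL-22 and type III interferons, read 9.30, 9.67 and 9.08 on the withdrawn and 9.20, 9.40 and 9.62 on the restimulated arrays. The groups overlapped almost fully. The difference was 0.06 ± 0.18 (SE, n = 3 per group, limma adjusted p = 0.943, 95% interval -0.40 to 0.51), and it turned to -0.079 without withdrawn replicate 3 and to -0.050 without restimulated replicate 3. IFNGR1, the ligand-binding chain for interferon gamma, read 7.41, 7.47 and 7.29 on the withdrawn and 7.45, 7.09 and 7.51 on the restimulated arrays, and restimulated replicate 2 was the lowest. The difference was -0.04 ± 0.13 (SE, n = 3 per group, limma adjusted p = 0.940, 95% interval -0.36 to 0.28), with 0.090 when that array was left out.

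**Figure D3:**
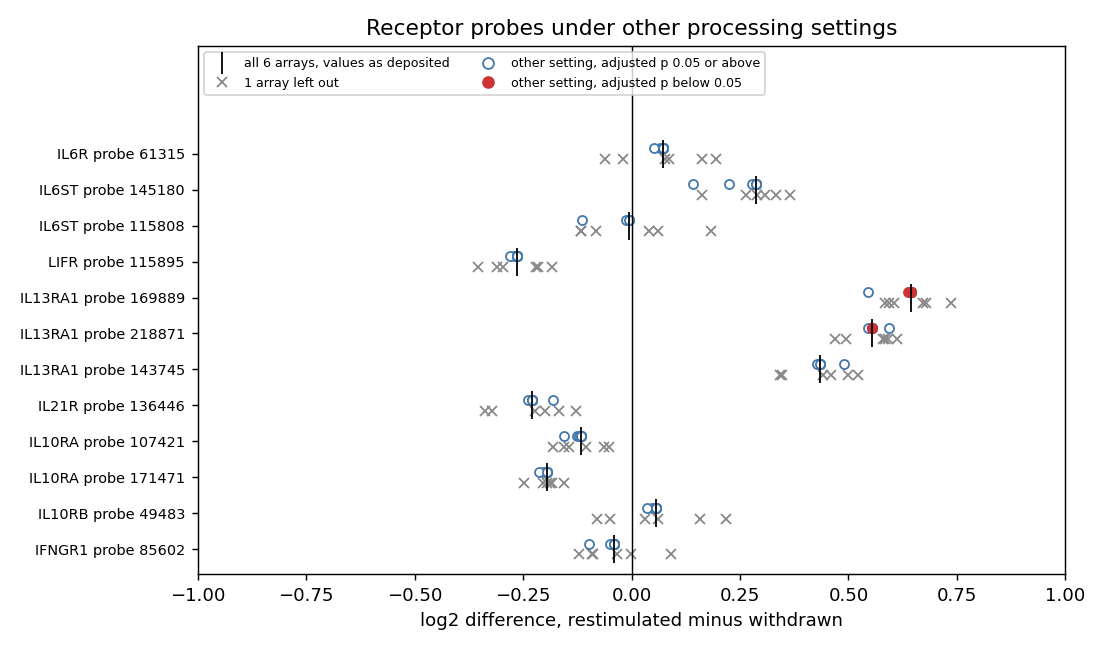
Log2 difference, restimulated minus withdrawn, of the 12 tested receptor probes under the processing settings tried (circles, red where the adjusted p was below 0.05), with 1 array left out (crosses) and with all 6 arrays and values as deposited (ticks). Red circles occur at 2 of the IL13RA1 probes, and crosses fall on both sides of 0 for IL6R, the dimmer IL6ST probe, IL10RB and IFNGR1.

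Other genes of the pathway were read from lists written from general knowledge, with 1 probe a gene, the brightest tested one. Of 86 listed genes 60 were tested, 5 were higher and none was lower after restimulation, beside 0.48% of all 12703 genes counted in the same way. The lists were chosen with earlier results of these data known, so this count is a description. The median difference of the 60 genes was 0.02. All 5 lay downstream of the receptors. SOCS3, the inhibitor that binds gp130 and JAK kinases, read 7.73, 7.54 and 7.91 on the withdrawn and 11.54, 11.46 and 11.79 on the restimulated arrays, so it rose by 3.87 ± 0.13 (SE, limma adjusted p = 0.00160, n = 3 per group). The 3 restimulated values lay far above the withdrawn ones. Its other tested probe rose by 4.98 ± 0.21 (SE, limma adjusted p = 0.00237). SOCS1, another inhibitor of JAK kinases, rose by 0.88 ± 0.06 (SE, limma adjusted p = 0.00617), while its other tested probe differed by 0.05. CISH, a further member of the family, rose by 0.44 ± 0.06 (SE, limma adjusted p = 0.0385), STAT3 by 0.48 ± 0.07 (SE, limma adjusted p = 0.0470) and SOCS2 by 0.47 ± 0.07 (SE, limma adjusted p = 0.0487), all with n = 3 per group. The other tested probe of SOCS2 differed by 0.06 (limma adjusted p = 0.899), that of CISH by 0.44 (limma adjusted p = 0.151), and those of STAT3 by 0.46 and 0.22 (limma adjusted p = 0.0669 and 0.460), none of which passed. Of the 18 other settings SOCS3 passed in 17 and SOCS1 in 16, but STAT3 in 6, CISH in 5 and SOCS2 in 4.

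Ligand and receptor lists held no called gene. Of 11 IL-6 family ligands 5 were tested, and EBI3 and LIF had the smallest p, at -0.35 ± 0.10 (SE, limma adjusted p = 0.1998, n = 3 per group) and -0.40 ± 0.17 (SE, limma adjusted p = 0.389) in restimulated minus withdrawn arrays. IL6 itself was not above the floor on enough arrays, with means of 6.85 in both groups. Of the other gp130-family receptor chains 3 of 4 were tested, and IL27RA, which pairs with gp130 for IL-27, differed by 0.12 ± 0.07 (SE). Among 4 tested chains of the common gamma family, IL15RA differed by 0.25 ± 0.11 (SE) and IL2RG, the common gamma chain itself, by -0.21 ± 0.12 (SE). Of the beta common, hematopoietin and IL-12 type receptors 8 of 14 were tested, with 7 negative differences, and IL12RB1 differed by -0.15 ± 0.06 (SE). Among 4 tested class II chains IFNGR2, the partner of IFNGR1, differed by 0.26 ± 0.12 (SE). None of these passed, with limma adjusted p between 0.363 and 0.556. Of the ligands of the class II and gamma chain members, 3 of 7 were tested, and IL10, the ligand of IL10RA, differed by 0.23 ± 0.16 (SE, limma adjusted p = 0.642).

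The kinases and factors next to the receptors were measured as well. JAK1, the main kinase on gp130, differed by 0.07 ± 0.12 (SE, limma adjusted p = 0.871, n = 3 per group) and JAK3 by -0.31 ± 0.18 (SE, limma adjusted p = 0.556). STAT6, the factor used by IL13RA1 and IL4R, differed by 0.17 ± 0.14 (SE, limma adjusted p = 0.701). GRB2, an adaptor that links gp130 signaling to the MAPK pathway, was higher without overlap at all 3 of its probes, by 0.25 to 0.38. It did not pass (limma adjusted p between 0.146 and 0.254). Of 1105 genes with at least 3 tested probes, 9 (0.814%) were higher without overlap at every probe, GRB2 and IL13RA1 among them. IL13RA1 is counted there only through a probe whose direction was fixed by the filter. In the list of receptor shedding and trafficking none of 7 tested genes passed, and ADAM17, the protease that sheds IL6R, differed by -0.11 ± 0.11 (SE, limma adjusted p = 0.746).

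**Figure D4:**
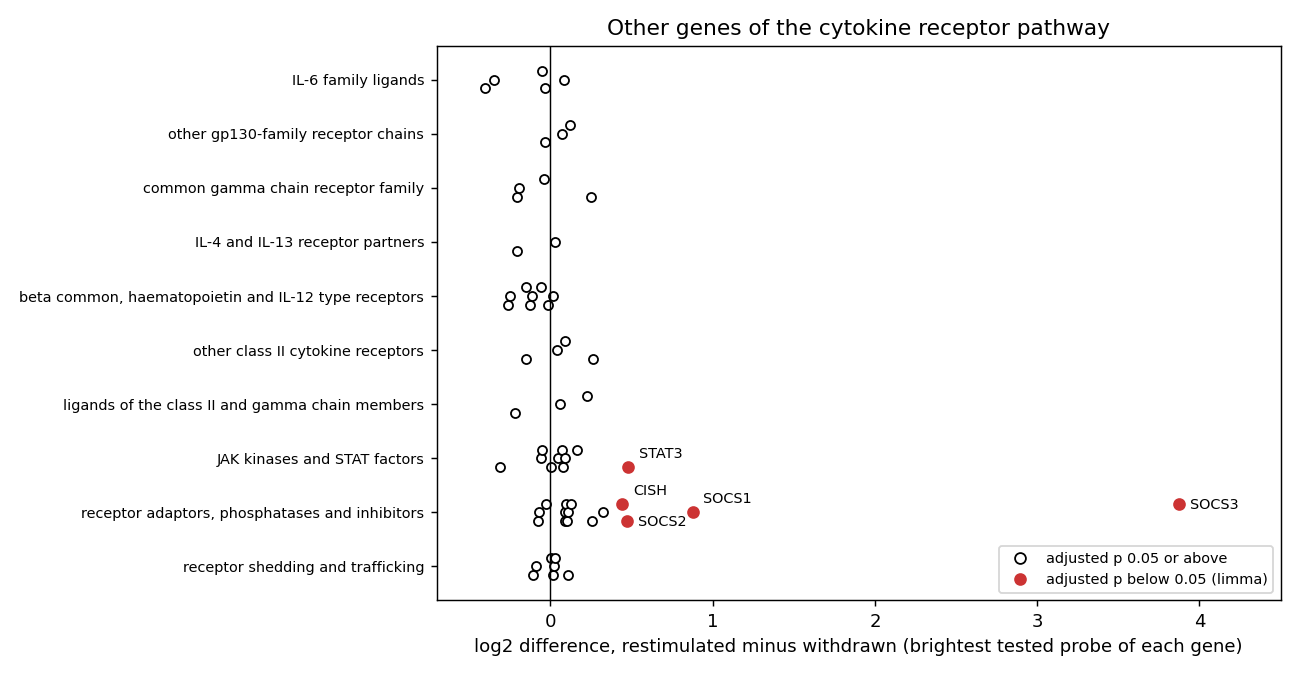
Log2 difference, restimulated minus withdrawn (x axis), of the tested genes of 10 pathway lists (y axis), each gene by its brightest tested probe, with genes of a limma adjusted p below 0.05 in red. The red points are SOCS3 at 3.87, SOCS1 at 0.88, STAT3, SOCS2 and CISH, and none is in a list of ligands or receptors.

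The cells carried plasma cell markers. The mean log2 level of 10 plasma cell markers lay between 10.99 and 11.07 on the withdrawn and between 11.29 and 11.42 on the restimulated arrays, and 5 of the 10 differences were positive and 5 negative. PRDM1 (1.29) and POU2AF1 (0.80) were called. The other positive differences, of XBP1 (0.71), IRF4 (0.49) and SLAMF7 (0.41), did not pass (limma adjusted p = 0.0643, 0.117 and 0.0857). SDC1 (-0.16), TNFRSF17 (-0.05), CD38 (-0.08), JCHAIN (-0.01) and CD27 (-0.04) had small negative differences that did not pass. T and NK cell markers lay between 7.62 and 7.75 on the withdrawn and between 7.38 and 7.57 on the restimulated arrays, with no called gene among 6 tested. CD3D and KLRD1 were at the floor, but CD3E (9.22 after restimulation and 9.40 after withdrawal), CD8A (8.501 and 9.07) and CD2 (8.36 and 8.81) had means well above it. Of the 6 tested, 4 differences were negative and 2 positive, those of CD3G (0.17) and NKG7 (0.06). Mature B cell markers lay between 7.44 and 7.46 against 7.29 and 7.34 after restimulation, with MS4A1 and FCER2 at the floor. Of 3 tested, 2 had negative differences and PAX5 differed by 0.01. The mean levels of these T, NK and B cell lists lay lower after restimulation, like the negative differences of LIFR, IL21R and IL10RA. The part of the lists in those differences was not tested. Fibroblast markers lay between 6.62 and 6.79 against 6.81 and 6.83 after restimulation, through PDGFRA alone (1.197, limma adjusted p = 0.0203), while COL1A1, COL1A2, COL3A1, DCN, LUM and PDGFRB were near the floor and not tested. Of 8 myeloid markers CD14 and ITGAM were tested and did not pass, with LYZ, CSF1R, CD163, S100A8 and S100A9 at the floor. Among 5 epithelial markers KRT8 was bright at 1 of its 2 probes, between 14.35 and 14.93 over the 6 arrays. Its other probe was not above the floor on enough arrays to be tested. The brightest tested KRT18 probe read between 8.66 and 8.82, while EPCAM and CDH1 were at the floor. The 4 erythroid markers with a probe were all tested, with mean levels between 7.65 and 8.004 on the withdrawn and between 7.57 and 7.74 on the restimulated arrays, and none passed.

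Likeness of pattern was measured by Pearson's r over the 6 arrays between the brightest tested probe of a gene and that of the 12702 other tested genes. For IL6R the closest were BAD (r = 0.985), BIRC6 (r = 0.979) and EIF2D (r = 0.979), and 135 genes exceeded 0.9. For IL6ST they were TUBB (r = 0.996), CASP5 (r = 0.995) and SLFNL1 (r = 0.982), with 95 genes above 0.9. All points share the same 6 arrays, so a level common to an array enters each r, and these values are a description without a test.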

How the data were processed

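Total RNA was amplified from random primers with a T7 promoter, labeled with Cy3 and hybridized to custom Agilent arrays. The authors deposited log2 intensities, 1 per spot and array, after quantile normalization, and R 2.9.0 and limma are named in the notes on processing from the submitters. Quantile normalization makes each difference relative to the average spot.

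Probe numbers were converted to rows by the grid geometry and symbols were updated through RefSeq (4253 changed, none of the members). The methods filter on negative control spots, which cannot be told apart here, so a probe had to exceed its array's median on at least 3 of 6 arrays. The groups were fitted in R 4.3.3 by lmFit and eBayes of limma 3.58.1, without a replicate block, and the code was tested on simulated data. Every member probe is named, as are all called pathway genes and up to 2 genes per list with the smallest p, not all of which are printed. JAK1, JAK3, STAT6 and ADAM17 are named by list or by role. GRB2 had the smallest p among the genes of its list that were not called, and was named with its values known. Members and lists were chosen with earlier results of these data known. Precision is limited by the number of arrays, 3 in each group. No probe sequence or position was used.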

Additional observations from a re-analysis of the deposited data

How the results depend on the processing

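The count of tested probes called, 2239 among all probes, was 3860 with an intensity trend and robust prior, 3590 with the interquartile range filter, 3661 without ceiling spots, 1324 with the stricter filter of all 6 arrays above the median, 31 with 1 probe a gene, 35 with each gene as the mean of its probes and 49 with symbol probes alone, and between 320 and 1042 with 1 array left out. The count of member probes called, 0 of 12, was 2 with the trend and robust prior and 2 without ceiling spots, 1 each with the interquartile range filter, centering and array weights, and 0 with any array left out. The 5 pathway genes called became 2 without a filter, 3 with the stricter filter, 2 with the interquartile range filter, 2 with 1 probe a gene, 1 with each gene as a mean, 2 with symbol probes alone and between 2 and 3 with 1 array left out. Settings with fewer features or arrays change the adjustment or the power by construction, and the cause of the other changes was not tested. The interquartile range filter keeps probes that vary between arrays, treatment included.

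Of the values of single member probes under other settings 180 had the same sign and call, 7 passed where the reported value did not, all of IL13RA1, and 8 turned sign, all with 1 array left out. The differences then ranged from -0.062 to 0.19 for IL6R, from -0.12 to 0.18 for the dimmer IL6ST probe, from -0.079 to 0.22 for IL10RB and from -0.12 to 0.090 for IFNGR1. With the replicate number as a block 0 tested probes, 0 pathway genes and 0 member probes passed. Over the tested probes, deviations of same-numbered arrays from their group means correlated with r = -0.011, -0.072 and -0.258. Those of arrays with different numbers correlated with r between -0.163 and 0.184. Centering within each group ties these values to each other, so they do not settle whether the numbers pair the samples. The difference of the brighter IL10RA probe ranged from -0.18 to -0.051 and that of IL21R from -0.34 to -0.13 with 1 array left out. OSMR and IL4R, near the floor, were not tested.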
